A study of Homo sapiens with 2 samples.

Results

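The apolipoprotein L (APOL) genes APOL1, APOL2, APOL3, APOL4, APOL5 and APOL6 were examined in Huh-7 cells, a human hepatoma line, with and without interferon-alpha. All probe sets annotated to only 1 of these 6 genes were taken. This gave 12 of the 54613 probe sets other than controls: 1 each for APOL1, APOL3 and APOL5, a pair for APOL2, 3 for APOL4 and 4 for APOL6. RNA from 1 untreated flask, which had its medium exchanged, and from 1 flask given recombinant human interferon-alpha 2b (100 U/mL, 6 hours) was hybridised to 1 Affymetrix array per condition. Interferon was added after a 24-hour incubation in medium with fetal bovine serum, and when the untreated flask was harvested is not given in the sources used here. With 1 array per condition no test is possible, and every difference below compares these 2 arrays and has no replicate check.

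The human APOL genes form a primate-expanded family on chromosome 22. APOL1 is the secreted member: it circulates on high-density lipoprotein particles together with APOA1 and haptoglobin-related protein (HPR), and there it lyses African trypanosomes by forming ion channels in their membranes. The other members lack this role and act inside cells. APOL3 is known for its membrane-dissolving action on intracellular bacteria, and APOL6 for promoting cell death when overproduced. Several members are known to respond to interferons in other cell types, such as endothelial cells.

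With interferon-alpha, APOL6 was the only APOL gene at least 2-fold higher, by at least 5.74-fold on its brightest probe set. The bounds on its other counted probe sets were 2.84-fold and 1.20-fold. APOL2 was 1.60-fold higher on the brighter of its probe sets and 1.19-fold on the other. APOL1 was slightly lower, with a log2 ratio of -0.13. APOL3, APOL4 and APOL5 did not exceed the background level on either array. As that level an intensity of 48.46 was used, the 50th percentile of the values pooled over the arrays, called the floor. Lower values were raised to it before ratios were taken, so a fold from an untreated value below it is a lower bound. The floor was exceeded by 3 of the 12 probe sets on both arrays, by 3 on the interferon array alone and by 6 on neither.

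**Figure D1:**
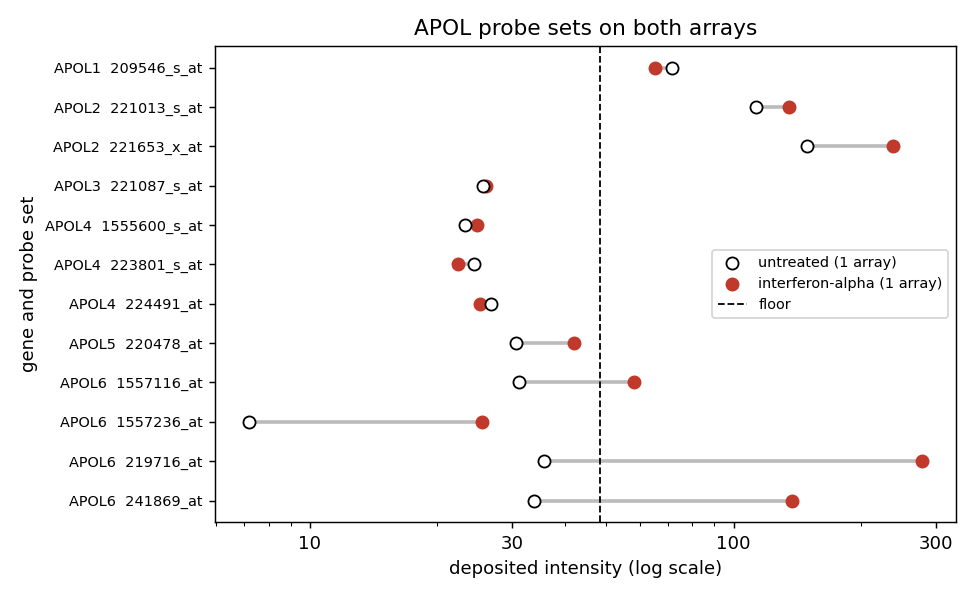
Deposited intensity (log scale) of the 12 APOL probe sets on the untreated array (open circles) and the interferon-alpha array (filled circles), 1 array each, with the floor of 48.46 as a dashed line. All 4 APOL6 probe sets are brighter with interferon, and those of APOL3 and APOL4 stay below the floor with little distance between the arrays; brightness cannot be set against that of another probe set.

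Counted per gene on the brightest probe set, 1 of the 3 APOL genes above the floor on at least 1 array was at least 2-fold higher, and 0 were at least 2-fold lower. Over all 13269 genes counted the same way, 0.430% were at least 2-fold higher, whereas 0.00% were lower by that much. Counted per probe set, 2 of 6 APOL probe sets were at least 2-fold higher, both of APOL6, beside 0.366% of the 28106 counted probe sets of the table. None of the 6 was at least 2-fold lower (0.00% of all counted probe sets). APOL6 and its 3 counted probe sets entered these counts only through the interferon array, where they were high. The shares over all genes and probe sets are therefore not a like comparison for them. Of 159 genes above the floor on the interferon array alone, 16 were at least 2-fold higher. APOL1 and APOL2, above the floor on both arrays, were not. The median log2 ratio of the 3 counted APOL genes was 0.68, and that of all counted genes was 0.03. With so few members the median is the value of APOL2.

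**Figure D2:**
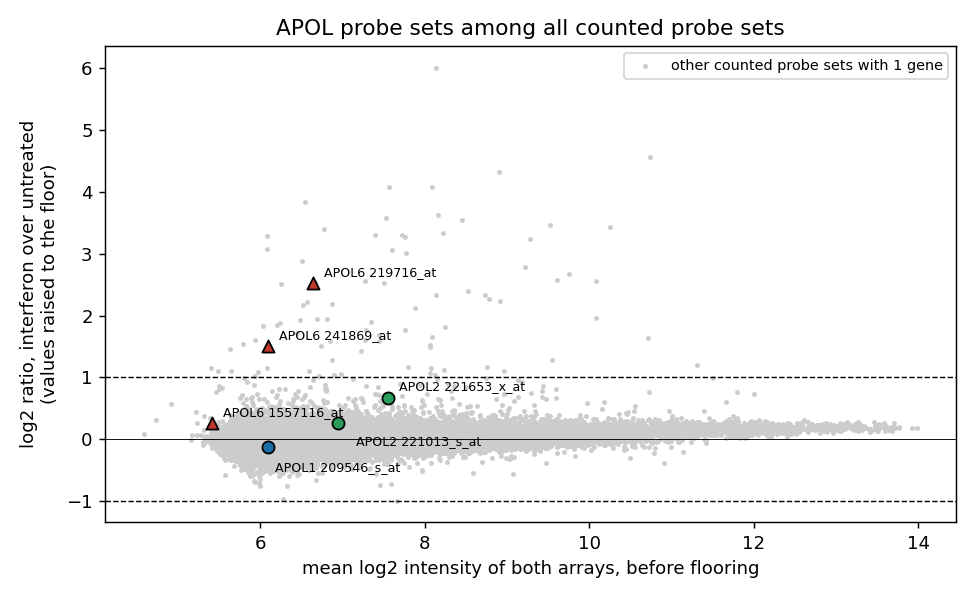
Log2 ratio (interferon over untreated, values raised to the floor) against mean log2 intensity for the 6 counted APOL probe sets and, in grey, all other counted probe sets with 1 gene. Triangles mark APOL6 probe sets that were below the floor untreated, whose ratios are lower bounds; dashed lines mark 2-fold. The APOL6 probe sets 219716_at and 241869_at lie above the 2-fold line, at 2.52 and 1.51.

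APOL6 was below the floor in untreated cells on each of its 4 probe sets, and each was brighter with interferon. Probe set 219716_at read 35.7 untreated and 278.3 with interferon, at least 5.74-fold higher (log2 2.52). Probe set 241869_at read 33.9 and 137.7, at least 2.84-fold higher (log2 1.51). On both, the interferon value cleared the floor by a wide margin, and the lower bound is that value divided by the floor. Probe set 1557116_at read 31.1 and 58.2. Its interferon value was only 1.20 times the floor, so its bound was 1.20-fold. Probe set 1557236_at read 7.17 and 25.4, below the floor on both arrays, and no fold is given for it. For the 3 probe sets above the floor with interferon, the deposited values before flooring had log2 ratios of 2.96, 2.02 and 0.90 in this order, each from an untreated value below the floor. When all probe sets were split into 10 equal groups by mean log2 intensity, the central 95% of unfloored log2 ratios in the groups that hold these 3 reached up to 0.43, 0.42 and 0.43.

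By its lower bound, APOL6 ranked 23 of the 13269 counted genes, a place that mixes bounds with measured ratios and rests on the floor. Passing from below to above the floor was in itself uncommon: of 27202 probe sets below the floor on the untreated array, 695 (2.55%) were above it with interferon and 30 (0.110%) were at least 2-fold higher. The 3 APOL6 probe sets above the floor with interferon belong to the 695 by definition, because all were below it untreated. Of these 3, 2 are among the 30.

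All 4 APOL6 probe sets were brighter with interferon. The bounds of the 3 counted ones differed, but lower bounds cannot show whether the folds themselves did. Of the 57 genes at least 2-fold higher, 7 had exactly 3 counted probe sets. All 3 passed 2-fold in 3 of these genes, and 2 of 3 did in another 3, of which APOL6 was one. In each gene at least 1 passes by selection, because the 57 were picked on their brightest probe set. APOL6 probe set 1557236_at, below the floor on both arrays, is not in this count. The probe set that missed 2-fold in APOL6 was 1557116_at, which had the lowest interferon value of the 3. Because each bound is the interferon value divided by the floor, it must have the lowest bound. Before flooring its log2 ratio was 0.90, also short of 2-fold.

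By the distance between the pair of log2 intensities, raised to the floor, the genes most like APOL6 were EPSTI1, OAS3 and TRIM69. EPSTI1 had intensities of 21.0 and 277.3 and was at least 5.72-fold higher. OAS3, which makes the 2-5A signal that activates RNase L, had 36.3 and 282.8 and was at least 5.84-fold higher. TRIM69, a tripartite-motif ubiquitin ligase, had 54.7 and 249.1, a measured ratio of 4.55-fold. The distances were 0.005, 0.02 and 0.24 in log2 units. The likeness rests on 2 arrays, and on the untreated array the floor makes APOL6, EPSTI1 and OAS3 equal.

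APOL2, an intracellular member that sits next to APOL1 on the chromosome, exceeded the floor with both probe sets, untreated and treated. Probe set 221653_x_at read 148.9 untreated and 237.8 with interferon, or 1.60-fold higher (log2 0.68). Probe set 221013_s_at read 113.0 and 135.0, or 1.19-fold higher (log2 0.26). Both were brighter with interferon, and neither reached 2-fold. In the brightness group that holds both, the central 95% spanned -0.27 to 0.37 in log2 ratio, so 221653_x_at lay above that range and 221013_s_at within it. At the higher value APOL2 ranked 85 of the 13269 counted genes. At a threshold of 1.5-fold it was counted as higher, which made 2 of 3 APOL genes, beside 0.754% of all counted genes.

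The APOL2 probe sets disagreed more than is usual in the table. Their log2 ratios were 0.42 apart, whereas the median gap was 0.10 among the 3411 genes with exactly 2 probe sets that exceeded the floor on each array, and 97.3% of those genes had a smaller gap. The suffix _x_at of the higher one marks, by the manufacturer's convention, probes that can also bind other transcripts, and _s_at marks probes shared by several transcripts, often of 1 gene. Whether signal from a related transcript contributed to 221653_x_at was not tested. With the deposited scaling the APOL2 difference was thus 1.19-fold or 1.60-fold, depending on the probe set.

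APOL1 was measured by the single probe set 209546_s_at, with 71.4 untreated and 65.2 with interferon. These are 1.47 and 1.35 times the floor, so APOL1 was detectable by this criterion but close to the floor on both arrays. The log2 ratio of -0.13 lay within the central 95% of its brightness group, from -0.40 to 0.42, and 29.1% of the probe sets there had a lower ratio. With 1 probe set, agreement within the gene could not be examined.

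APOL3, APOL4 and APOL5 did not reach the floor on either array with any of their 5 probe sets, at intensities from 22.3 to 41.9. The same held for 32.9% of all genes with a named probe set, on the probe set chosen for each. APOL3, on 221087_s_at, read 25.5 and 26.0. The 3 APOL4 probe sets read from 23.2 to 26.7 untreated and from 22.3 to 25.2 with interferon, 1 of them brighter and the others dimmer with interferon. APOL5, on 220478_at, read 30.6 and 41.9, the widest gap of these 5. Both values were below the floor and no fold is given. A difference in these genes was not detectable at this signal, which does not show that they were silent or unresponsive.

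The family order on chromosome 22 in the RefSeq gene table (GRCh38.p14) is APOL6, APOL5, then, beyond RBFOX2 and other genes, APOL3, APOL4, APOL2 and APOL1, followed by MYH9. APOL6 and APOL5 lie apart from the other 4 genes, and APOL5 lies between APOL6 and RBFOX2. The genes flanking the family were looked at by taking the 6 nearest table entries either side of each member. Of 22 such entries, 6 had a named probe set and 4 of these exceeded the floor: MCM5, a replicative helicase subunit (log2 -0.02), the non-muscle myosin gene MYH9 (-0.06), the splicing factor gene RBFOX2 (0.08) and the mitochondrial thioredoxin gene TXN2 (-0.01). None of the 4 was at least 2-fold higher or lower, which at a background of 0.430% says little about so few genes. The myoglobin gene MB, on the outer side of APOL6, read 34.2 and 32.0, below the floor on both arrays.

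The partners of APOL1 in the trypanolytic particle were all above the floor. APOA1, the main protein of high-density lipoprotein, read 6204 and 6757 (log2 0.12), HPR 113.6 and 116.9 (0.04) and haptoglobin (HP) 447.3 and 485.2 (0.12). None of the 3 was at least 2-fold higher or lower, beside 0.430% higher and 0.00% lower among all counted genes. HP and HPR are close paralogs, and their probe sets may not separate them. Classical plasma apolipoproteins share the name but not the ancestry of the APOL genes. Of 15 listed, 14 had a probe set, 12 were counted and 0 were at least 2-fold higher or lower. Their log2 ratios ran from -0.26 (APOA5) to 0.29 (APOB), with a median of 0.13. At the background of 0.430% higher and 0.00% lower, a count of 0 says little for either list. The relative APOLD1, an endothelial early response gene with an APOL-like domain, read 20.6 and 21.9, below the floor on both arrays.

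Genes that receive or carry the interferon signal gave 1 of 8 counted members at least 2-fold higher, beside 0.430% of all counted genes. This was IRF9, the DNA-binding subunit of the ISGF3 complex, with 106.7 and 2143. IRF1, a factor that binds related promoter elements, was 1.85-fold higher, at 81.1 and 149.7, so it was above APOL2 and below APOL6. The receptor chains IFNAR1 and IFNAR2 had log2 ratios of -0.10 and -0.11. Beside the reference genes of the response, APOL6 lay between OAS1 (at least 3.60-fold higher) and PLSCR1 (10.7-fold), and the 5 reference genes had a median log2 ratio of 4.08. The values for OAS1, APOL6, MX1 and IFIT1 are lower bounds, not measured ratios, and the median is the bound of MX1.

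**Figure D3:**
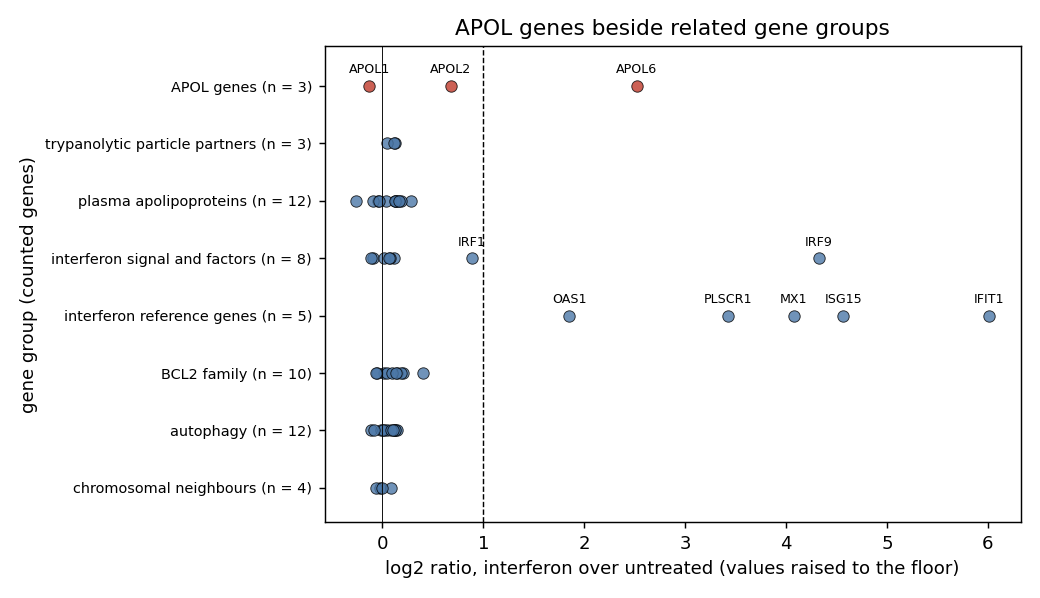
Log2 ratio (interferon over untreated, values raised to the floor) of each counted APOL gene and of the counted genes of 7 related groups, 1 point per gene; the dashed line marks 2-fold. APOL6, at a lower bound of 2.52, lies above OAS1 and below the other interferon reference genes. The values of OAS1, MX1 and IFIT1 are lower bounds too. APOL1 and APOL2, at -0.13 and 0.68, lie below 2-fold.

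APOL proteins have been linked to cell death and autophagy, and the genes of both processes were followed as fixed groups. Of 10 counted BCL2 family genes, 0 were at least 2-fold higher or lower, with a median log2 ratio of 0.11. The highest was PMAIP1 (NOXA), a death-promoting member, at 0.40, with 355.0 and 467.4. All 12 autophagy genes were counted, and 0 were at least 2-fold higher or lower. Their log2 ratios ran from -0.11 (ATG7) to 0.14 (ATG12) with a median of 0.06. Among all counted genes 0.430% were at least 2-fold higher and 0.00% lower, so a count of 0 in either list says little. VAMP8, a membrane fusion protein of endosomes and autophagosomes, read 1131 and 1231 (0.12).

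The cells carried the liver-type transcripts of a hepatoma line on both arrays. All 7 hepatoma markers with a named probe set were counted, among them albumin (ALB, 12212 and 14588) and alpha-fetoprotein (AFP, 11588 and 13478). Of the markers of other cell types with a probe set, 4 of 6 endothelial, 2 of 5 leukocyte and 2 of 4 podocyte genes exceeded the floor on neither array, beside 32.9% of all genes. Those that did exceed it were PECAM1 (158.0 and 152.4) and VWF (67.1 and 49.99) of the endothelial list, LYZ (2064 and 2271), CD14 (91.1 and 76.5) and ITGAM (66.3 and 78.8) of the leukocyte list, and SYNPO (127.6 and 102.6) and PODXL (69.3 and 82.1) of the podocyte list. Summed intensities were 372.6 untreated and 331.3 with interferon for the endothelial list, 2263 and 2466 for the leukocyte list and 248.8 and 235.1 for the podocyte list. No counted marker of these lists was at least 2-fold higher or lower, beside 0.430% higher and 0.00% lower among all counted genes.

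The scaling between the arrays bears on the smaller APOL differences. The medians of the arrays were 48.84 and 48.04, but all 18 hybridisation control probe sets, which read spiked-in bacterial and phage transcripts, gave more signal on the interferon array (median log2 ratio 0.43). When the arrays were centred on these controls, the median of all counted genes moved from 0.03 to -0.38, and 44 genes then passed 2-fold upwards and 6 downwards, in place of 57 and 0. APOL6 then stood at a log2 bound of 2.30. APOL2 stood at 0.25 on 221653_x_at and at -0.17 on 221013_s_at, where the direction turned, and APOL1 stood at -0.56. The centring subtracts the same constant from every ratio measured above the floor on both arrays, so it cannot alter the order of such ratios.

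**Figure D4:**
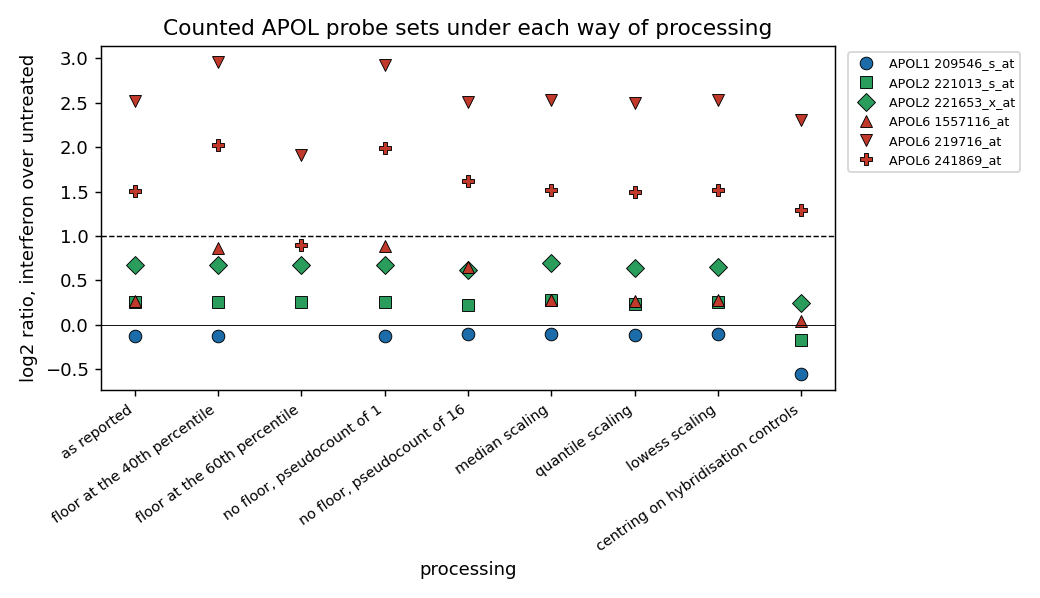
Log2 ratio (interferon over untreated) of the 6 counted APOL probe sets as reported and under 8 other floors, pseudocounts and scalings; a missing point is a probe set that exceeded the floor on neither array, and the dashed line marks 2-fold. APOL6 219716_at lies between 1.92 and 2.96 throughout, and APOL2 221013_s_at changes sign with centring on the hybridisation controls.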

How the data were processed

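The authors deposited a linear intensity for each probe set on each array, made with GCOS, the Affymetrix scanner software, per the submitters' processing notes. For its version, background correction and scaling, nothing is given in the sources used here. Labelled cRNA was prepared from 6 µg of total RNA, per the labels' protocols. Detection calls were not used here, and the number of arrays limits the precision.

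Gene names came from the platform annotation, with symbols updated through the gene ID. The floor, the 50th percentile without the 62 control probe sets, stands in for a detection call. Each gene was read on its brightest probe set by mean log2 intensity, and a gene or probe set above the floor on at least 1 array was counted. Other floors, pseudocounts, scalings and probe set choices were tried. The calculations used Python 3.11.15, pandas 2.3.3, NumPy 2.4.6 and statsmodels 0.14.6 and were tested on simulated data. The simulated folds were given only to probe sets with a higher mean log2 intensity than any APOL probe set, so lower bounds were not tested.

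The text names all APOL probe sets, examples from the gene lists and, for an APOL gene at least 2-fold higher, the 3 most similar genes. The members and lists were chosen with earlier results of these data known. Promoter and protein sequences of APOL1, APOL2, APOL3, APOL4, APOL5 and APOL6 were not analysed here.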

Additional observations from a re-analysis of the deposited data

How the results depend on the processing

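The count of 1 APOL gene at least 2-fold higher, APOL6, held in the 11 alternatives that kept the 2-fold threshold, and it was 2 at 1.5-fold, where APOL2 joined. The count of 2 APOL probe sets at least 2-fold higher became 1 when the floor was the 60th percentile, where 241869_at had a log2 bound of 0.90, and 3 without a floor and with a pseudocount of 1, where 1557236_at entered. The median log2 ratio of the counted APOL genes, 0.68 as reported, was 0.53 and 1.30 with the floor at the 40th and 60th percentile, 0.23 and 0.16 with pseudocounts of 1 and 16, 2.52 without _x_at and _s_at probe sets, 0.47 with the median over a gene's counted probe sets and 0.25 after centring on the hybridisation controls. With the other floors, the pseudocounts and the restriction on probe sets, between 1 and 6 genes were counted in place of 3, and the floors also changed the bound of APOL6, to 1.92 at the 60th percentile. The centring subtracts a constant. It stayed between 0.64 and 0.70 under median, quantile and lowess scaling and with the probe set of highest untreated intensity. The log2 value of APOL6 ran from 1.51, with the median over its counted probe sets, to 2.96, with the floor at the 40th percentile, below its untreated value. Where they were counted, that of APOL2 ran from 0.25 to 0.70 and that of APOL1 from -0.56 to -0.11. Without _x_at and _s_at probe sets neither APOL1 nor APOL2 was counted, and with the floor at the 60th percentile APOL1 was not. The searches of promoters and the protein alignments that had been planned were not run. No paired analysis was possible because each condition has 1 array. Signal near the floor limits APOL1, and APOL3, APOL4 and APOL5 have no measured ratio.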
